A study of Mus musculus with 53 samples.

Results

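The nuclear genes for the subunits of the mitochondrial respiratory chain and ATP synthase were followed across 53 sciatic nerve samples of mice. Genes were chosen by symbol, as Sdha, Sdhb, Sdhc, Sdhd and every symbol starting with Nduf, Uqcr, Cox4, Cox5, Cox6, Cox7, Cox8 or Atp5, without 7 rows named as pseudogenes. This gave 93 of 49568 genes listed. Of these, 74 encode subunits found in most tissues: 36 of complex I, 4 of complex II, 8 of complex III, 11 of complex IV and 15 of ATP synthase. Cox6a2, Cox7a1 and Cox8b are the striated muscle isoforms of complex IV subunits and were kept apart. Another 5 genes (Cox4i2, Cox6b2, Cox7b2, Cox8c and Ndufa4l2) encode other isoforms of restricted expression, and 11 encode assembly, coupling or supercomplex factors whose symbols share the same stems.

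All mice were male C57BL/6J. SD mice received the standard diet and were sampled at 16 weeks (n = 5) or 24 weeks of age (n = 8). HFD mice, the prediabetic model, received a diet with 60% of its energy from fat from 5 weeks of age and were sampled at 16 weeks (n = 7) or 24 weeks (n = 7). HFD-STZ mice, the type 2 diabetes (T2D) model, received the same diet and streptozotocin, which kills pancreatic beta cells, at 12 weeks of age in doses of 75 and then 50 mg/kg, and were sampled at 16 weeks (n = 5) or 24 weeks (n = 8). For dietary reversal (DR), HFD-DR mice (n = 7) and HFD-STZ-DR mice (n = 6) went from the high-fat diet to the control diet at 16 weeks of age for 8 weeks. HFD-STZ-DR mice thus carried the streptozotocin treatment too. The labels do not say that each sample is a different mouse, so p-values measure the spread between samples. The library number of replicate 7 of HFD mice at 16 weeks directly follows that of replicate 6, a place that HFD-STZ libraries of that age hold in 5 other runs of numbers, and its group was taken from its label.

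As background, oxidative phosphorylation passes electrons from NADH through complex I, or from succinate through complex II, to complex III, cytochrome c and complex IV, and the proton gradient so made drives ATP synthase. Complexes I, III, IV and ATP synthase combine nuclear subunits with a few encoded in mitochondrial DNA, while complex II is wholly nuclear. Axons of peripheral nerve need ATP along their whole length, and Schwann cells supply them with metabolites. Striated muscle and brown adipocytes hold more mitochondria than most other cells and use their own isoforms of some complex IV subunits.

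Each value is the deposited log2 level of a gene in a sample, which the authors normalized in a way not given in the sources used here, and the number of reads behind it is unknown. Mbp, which encodes myelin basic protein, lay between 19.28 and 20.63 in all 53 libraries. The mean log2 level of 15 skeletal muscle markers, called the muscle marker score here, ran from 5.28 to 14.53. Ucp1, the uncoupling protein of brown adipocytes, was above 8 in 7 libraries and highest in replicate 2 of SD mice at 24 weeks (12.66) and replicate 6 of HFD mice at 16 weeks (12.22). In replicate 7 of HFD-STZ mice at 24 weeks, the mean log2 level of 8 sensory neuron markers was 13.58, against 8.02 to 8.85 in the other libraries. Of 14 such markers listed, 6 were left out for a value above 22, such as Nefl at 56.99 in this library. The highest value among the genes kept was 20.96, and why values above 22 arose is unknown. In bulk tissue, fewer cells of a type and less RNA per cell cannot be told apart.

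Levels between genes were compared per kilobase (kb) of exon in SD mice at 24 weeks, as the log2 level minus log2 of the merged exon length. Subunits of all 5 complexes were high, with medians of 10.96 for complex I, 11.97 for complex II, 11.65 for complex III, 11.56 for complex IV and 11.30 for ATP synthase, and the factors were lower at 8.56. Atp5b, the catalytic beta subunit of ATP synthase, led at 13.58 ± 0.36 (SD, n = 8). It was followed by Cox6a1 at 13.51 ± 0.33 and Cox8a at 13.31 ± 0.33, small nuclear subunits of complex IV, and by Cox4i1 at 13.17 ± 0.34, the widely expressed form of subunit 4. These 4 values lay within about 1 SD of their neighbours. In complex II, the order was Sdha (12.50), which holds the succinate site, Sdhd (12.23), Sdhb (11.71), which carries the iron-sulfur clusters, and Sdhc (11.21), and the SDs ran from 0.30 to 0.47. Ndufb9 was highest (12.72) and Ndufb2 lowest (6.68) in complex I, both accessory subunits. In complex III the range ran from Uqcrq (10.52) to Uqcr10 (12.24). Cox5a, a nuclear subunit on the matrix side of complex IV, was lowest in that complex at 10.32. Atp5g2, 1 of 3 genes for the same membrane ring subunit, was far below every other subunit at 4.05.

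**Figure D1:**
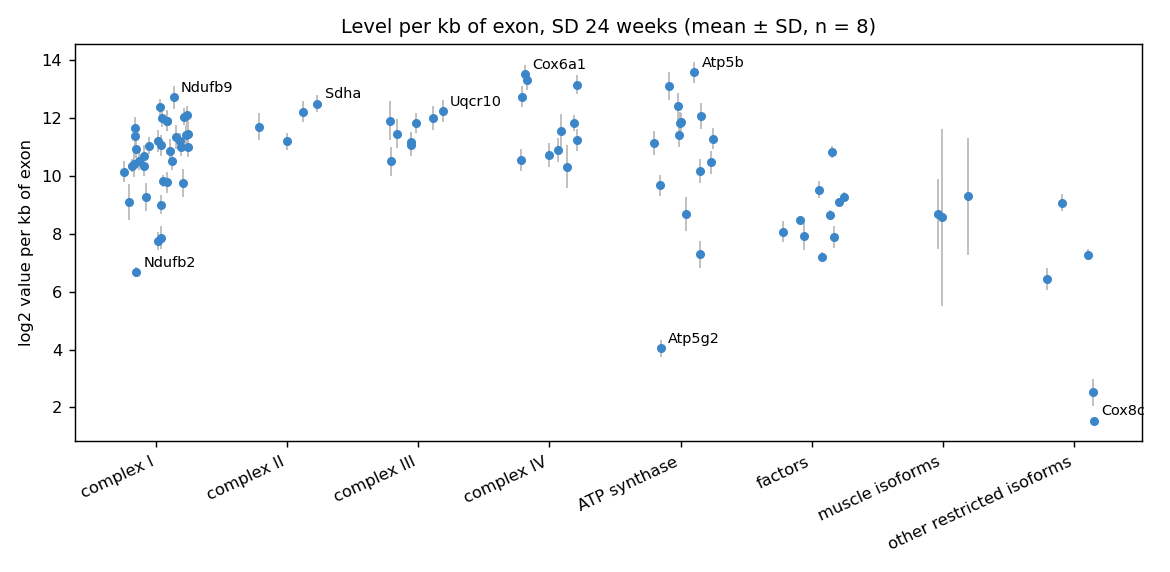
Level of each gene in SD mice at 24 weeks, as log2 value per kb of exon (y axis), grouped by complex or kind (x axis); points are means of 8 samples and bars are SDs, and genes without an exon length are left out. Most subunits lie between 10 and 13, with Atp5g2 at 4.05 and Cox8c at 1.55 far below.

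Values per kb depend on the annotated length, and merged exons lower a gene with a long minor transcript. Reads may also be shared with copies elsewhere in the genome. Of the 100-base stretches of the longest transcript, 69.0% occurred in other genes for Atp5l, 33.4% for Ndufb4, 29.5% for Atp5h, 28.2% for Ndufb6 and 24.0% for Ndufa13, so their levels are uncertain, and 13.6% did for Cox5a. None did for Cox6a2, Cox7a1, Cox8b, Cox7a2 or Cox8a, while 1.5% did for Cox6a1 and 4.3% for Atp5g2. Only annotated transcripts were searched, and whether read mapping lowered the level of Atp5g2 was not tested. The paper describes non-stranded libraries, in which reads of a gene and of an antisense partner cannot be told apart.

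All 3 muscle isoform genes are on the same chromosome, far from their counterparts. Cox6a2 (ENSMUSG00000030785) is on chromosome 7 of GRCm38 from 128205435 to 128206387 (minus strand), Cox7a1 (ENSMUSG00000074218) on chromosome 7 from 30184144 to 30186078 (plus strand), and Cox8b (ENSMUSG00000025488) on chromosome 7 from 140898945 to 140900446 (minus strand). Their widely expressed counterparts are Cox6a1 on chromosome 5 from 115345642 to 115348981, Cox7a2 on chromosome 9 from 79755361 to 79759878 and Cox8a on chromosome 19 from 7215153 to 7217616, all on the minus strand. The stretches of 250 bases before the RefSeq start of 5 of these genes (GRCm38.p6) are shown because the pairs differed in how they varied between libraries, as described after them. They are chr7:30183921-30184170 on the plus strand for Cox7a1, and on the minus strand chr9:79759854-79760103 for Cox7a2, chr7:140900447-140900696 for Cox8b, chr19:7217617-7217866 for Cox8a and chr5:115348959-115349208 for Cox6a1. Capitals mark GCGCA, any base, then GCGC (nuclear respiratory factor 1, NRF1), CCGGAA (ETS factors such as GABP) or CAGCTG (an E-box of myogenic factors), on either strand.
Cox7a1: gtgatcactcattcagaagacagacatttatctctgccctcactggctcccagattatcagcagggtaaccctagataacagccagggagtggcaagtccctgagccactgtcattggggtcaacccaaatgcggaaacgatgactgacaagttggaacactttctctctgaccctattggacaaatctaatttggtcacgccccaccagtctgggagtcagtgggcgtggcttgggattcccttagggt
Cox7a2: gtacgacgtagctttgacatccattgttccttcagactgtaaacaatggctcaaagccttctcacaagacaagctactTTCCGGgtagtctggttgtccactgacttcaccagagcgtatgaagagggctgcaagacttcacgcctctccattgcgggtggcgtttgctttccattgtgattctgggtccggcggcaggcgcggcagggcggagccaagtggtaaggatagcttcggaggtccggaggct
Cox8b: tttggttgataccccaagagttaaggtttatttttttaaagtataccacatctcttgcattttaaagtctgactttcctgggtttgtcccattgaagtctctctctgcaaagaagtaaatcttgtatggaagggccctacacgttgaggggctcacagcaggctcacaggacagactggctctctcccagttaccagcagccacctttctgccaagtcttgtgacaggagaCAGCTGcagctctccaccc
Cox8a: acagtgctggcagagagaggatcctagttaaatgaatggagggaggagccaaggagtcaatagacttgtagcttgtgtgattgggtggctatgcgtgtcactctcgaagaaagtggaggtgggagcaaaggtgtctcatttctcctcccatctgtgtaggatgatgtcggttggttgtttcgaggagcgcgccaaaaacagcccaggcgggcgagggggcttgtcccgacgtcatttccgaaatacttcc
Cox6a1: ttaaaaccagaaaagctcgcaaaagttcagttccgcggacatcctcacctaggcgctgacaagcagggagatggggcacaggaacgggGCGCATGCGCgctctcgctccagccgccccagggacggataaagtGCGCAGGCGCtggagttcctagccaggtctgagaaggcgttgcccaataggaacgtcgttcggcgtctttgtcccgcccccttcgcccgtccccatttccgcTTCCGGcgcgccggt

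The Cox6a1 stretch holds 2 NRF1 matches and 1 ETS match, that of Cox7a2 1 ETS match and that of Cox8b 1 E-box, while those of Cox7a1 and Cox8a hold none of the 3. NRF1 and the ETS factor GABP are textbook regulators of respiratory chain genes. Of the 93 genes, 77 had a stretch in the RefSeq table. The NRF1 letters occurred in 18.2% of these (14 of 77), against 4.2% of all 27025 genes with stretches of the same length. A gene counted if any of its stretches matched, and all genes were not matched to the members for base content or expression. The ETS letters occurred in 29.9% (23 of 77) against 13.6%, and the E-box in 7.8% (6 of 77) against 14.7%. Among the 63 subunits with a stretch, the shares were 20.6%, 31.7% and 7.9%. A match is a description of the letters, not a bound site.

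The 3 muscle isoforms varied most of all members between libraries of the same group. The SD within groups was 2.44 for Cox6a2, 1.72 for Cox8b and 1.04 for Cox7a1, against a median of 0.33 over the 74 subunits, 0.24 over the factors and 0.26 over 18069 genes. In SD mice at 16 weeks, Cox6a2 stood at 5.05, 10.43, 3.80, 4.14 and 3.64. In HFD-STZ mice of that age, it was 4.99, 4.60, 4.44, 4.11 and 5.54. One SD library was thus far above all others of both groups, which otherwise overlapped. In the larger groups, the lowest, median and highest levels of Cox6a2 were 4.43, 6.31 and 8.39 in HFD mice at 16 weeks, 3.99, 7.39 and 11.80 in SD mice at 24 weeks, 4.52, 5.89 and 10.13 in HFD mice and 3.69, 7.29 and 10.74 in HFD-STZ mice. In HFD-DR mice they were 5.40, 8.79 and 12.29, and in HFD-STZ-DR mice 4.19, 6.12 and 12.83. Every group except HFD-STZ mice at 16 weeks thus held both low and high libraries, and all groups overlapped.

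Cox8b was high where Cox6a2 was highest, but also in some libraries where Cox6a2 was low. In replicate 8 of HFD-STZ mice at 24 weeks, Cox8b was 7.91 and Cox6a2 3.69. In replicate 7 of HFD mice of that age, they were 8.05 and 5.04. Cox8b stood at 4.61, 9.24, 5.55, 5.65 and 6.72 in SD mice and at 4.64, 4.28, 4.38, 4.82 and 5.49 in HFD-STZ mice at 16 weeks. Elsewhere it ran from 5.42 to 10.57 (median 5.65) in HFD mice at 16 weeks, from 4.77 to 10.12 (7.81) in SD mice at 24 weeks, from 5.51 to 8.53 (7.24) in HFD mice, from 5.31 to 9.28 (7.02) in HFD-STZ mice, from 6.32 to 10.48 (8.32) in HFD-DR mice and from 4.12 to 11.05 (5.13) in HFD-STZ-DR mice. Cox7a1 had the narrowest span, from 6.13 to 10.45 over all samples, with group means between 6.65 ± 0.22 (SD, n = 5) in HFD-STZ mice at 16 weeks and 7.96 ± 1.08 (SD, n = 7) in HFD-DR mice. These are the lowest and highest of the group means, and this pair of groups was not tested. Their ranges, 6.40 to 6.92 and 6.85 to 9.80, overlapped at the ends.

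The counterparts stayed in a narrow band. Cox6a1 ran from 12.48 to 13.73 over all 53 samples, Cox7a2 from 11.23 to 12.52 and Cox8a from 12.12 to 13.24. Per kb, Cox6a2 made up 0.772% of Cox6a2 and Cox6a1 together in the median library and from 0.152% to 50.2% over all. Cox7a1 made up 6.39% of its pair in the median library (3.55% to 30.3%), and Cox8b 2.21% of its pair (0.463% to 39.2%). These shares take the deposited values as plain log2 levels. The normalization is unknown, so the percentages are uncertain. The highest share of each pair was in replicate 4 of HFD-STZ-DR mice, which also had the highest muscle marker score.

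The muscle isoforms were set beside the muscle marker score, whose 15 genes include none of them. Over 53 samples, Cox6a2 and the score had a Pearson r of 0.976 and a Spearman rho of 0.959 (permutation p = 1e-05 for each, the smallest that 100000 resamples can give, and 1e-05 after Benjamini-Hochberg adjustment over the 3 genes). Cox7a1 had an r of 0.830 and a rho of 0.725, and Cox8b an r of 0.798 and a rho of 0.689, with the same permutation p and adjusted p. Without the 2 samples farthest from the median score, replicate 4 of HFD-STZ-DR mice (14.53) and replicate 5 of HFD-DR mice (13.99), r was 0.971, 0.779 and 0.749. On deviations from group means, it was 0.974, 0.808 and 0.774. Both measures come from the same libraries and the same normalization. Cox8b and Cox7a1 were also high in replicate 6 of HFD mice at 16 weeks (10.57 and 9.82), where Ucp1 was 12.22 and the muscle score 9.70. Cox8b was 8.05 in replicate 7 of HFD mice and 7.91 in replicate 8 of HFD-STZ mice at 24 weeks. Ucp1 was 10.15 and 10.05 in these libraries, and the muscle score 5.75 and 5.28. Brown adipocytes also express Cox7a1 and Cox8b, and the part of each tissue was not tested.

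**Figure D2:**
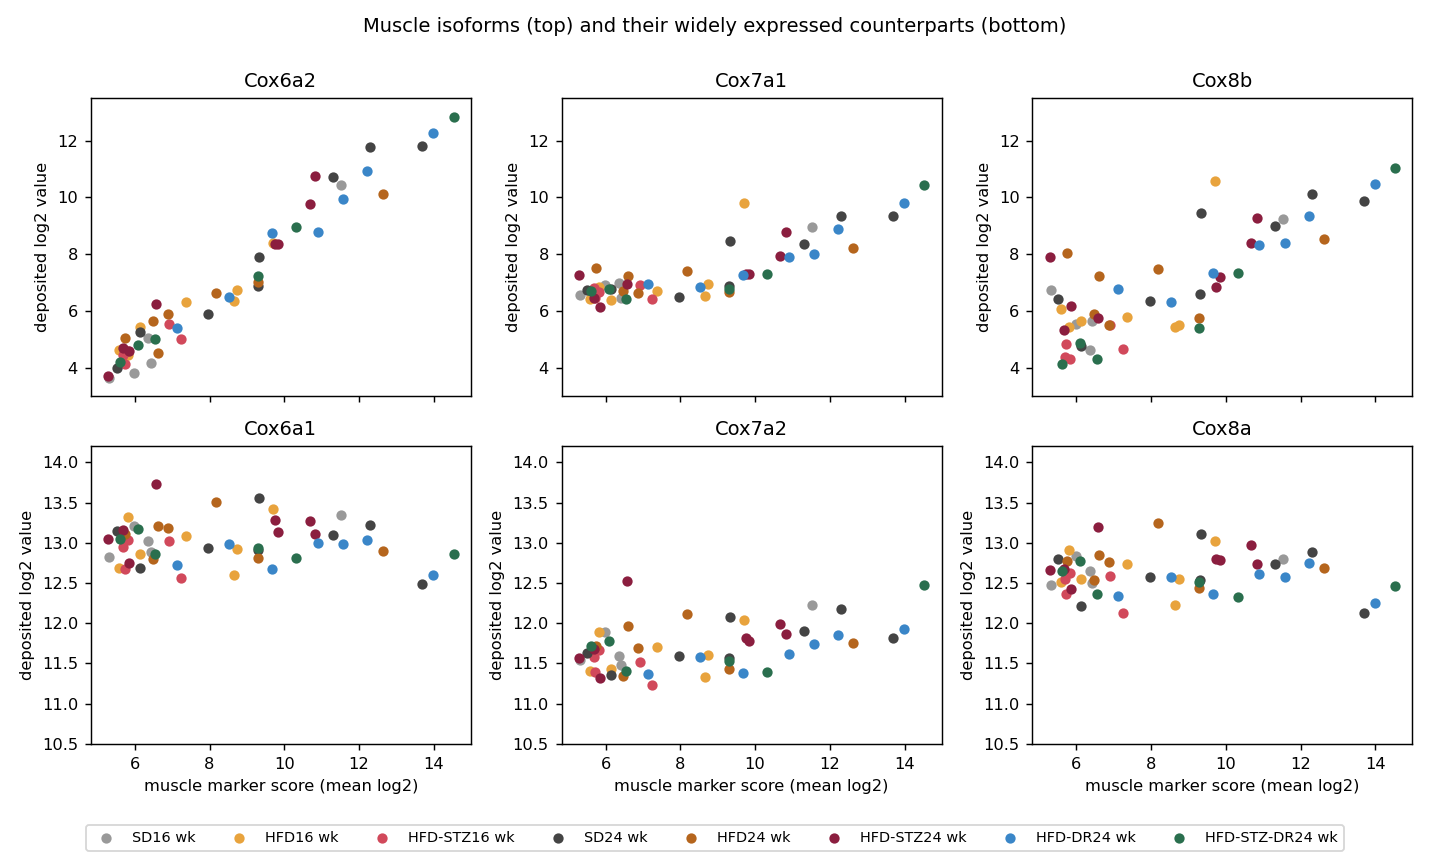
Log2 level of the muscle isoforms (top) and of their widely expressed counterparts (bottom, on a narrower scale) against the muscle marker score, the mean log2 level of 15 marker genes; each point is 1 of 53 samples, coloured by group. Cox6a2 climbs over the whole range of the score (r = 0.976), while Cox6a1 stays between 12.48 and 13.73.

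The subunits found in most tissues also followed the score, with a much smaller slope. Each gene was fitted with limma on the 8 groups and the score, a fit added after the data had been seen. With Benjamini-Hochberg adjusted p under 0.05, 78 of 91 members tested rose with the score and 0 fell, where 8.53% of 18069 genes rose and 1.68% fell. Among the 74 subunits 69 rose, namely 34 of 36 in complex I, 4 of 4 in complex II, 8 of 8 in complex III, 9 of 11 in complex IV and 14 of 15 in ATP synthase. The factors rose in 6 of 11 cases, and the tested restricted isoforms Cox4i2, Cox6b2 and Ndufa4l2 in 0 of 3. The median slope of the subunits was 0.0861 log2 units per unit of the score, from -0.0021 to 0.178.

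The steepest subunits, some named only after their values were seen, were Cox5a at 0.178 (SE 0.024), Uqcrfs1 at 0.160 (SE 0.021), the Rieske iron-sulfur protein of complex III, and Ndufb5 at 0.144 (SE 0.019), an accessory subunit of complex I. Sdhb had a slope of 0.125. Cox6a2 had a slope of 0.977 (SE 0.034), Cox8b of 0.546 and Cox7a1 of 0.346. At the other end, Cox6a1 (-0.0021, SE 0.015, limma adjusted p = 0.961) and Cox8a (-0.0008, SE 0.014, limma adjusted p = 0.984), whose muscle forms climbed, were close to flat. Cox7a2 rose with a slope of 0.058 (SE 0.015). The other subunits that did not pass were Ndufa7 (0.038), Ndufa13 (0.043) and Atp5g2 (0.034).

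Among genes outside the name rule, 13 of 13 of the citrate cycle, 11 of 13 mitochondrially encoded subunits, 10 of 12 electron carriers and related subunits, 15 of 30 further assembly factors and 5 of 14 regulators of mitochondrial gene expression rose with the score. None of 10 Schwann cell, 6 macrophage, 5 endothelial or 4 fibroblast markers passed in either direction, and neither did 8 white adipocyte, 8 sensory neuron or 3 brown adipocyte markers. Of 6 pericyte and smooth muscle markers, 1 rose. The number of members that rose was 66 without replicate 4 of HFD-STZ-DR mice and 82 without replicate 7 of HFD-STZ mice at 24 weeks, the extremes when 1 library was left out. Whether muscle tissue in the samples carried these transcripts was not tested.

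**Figure D3:**
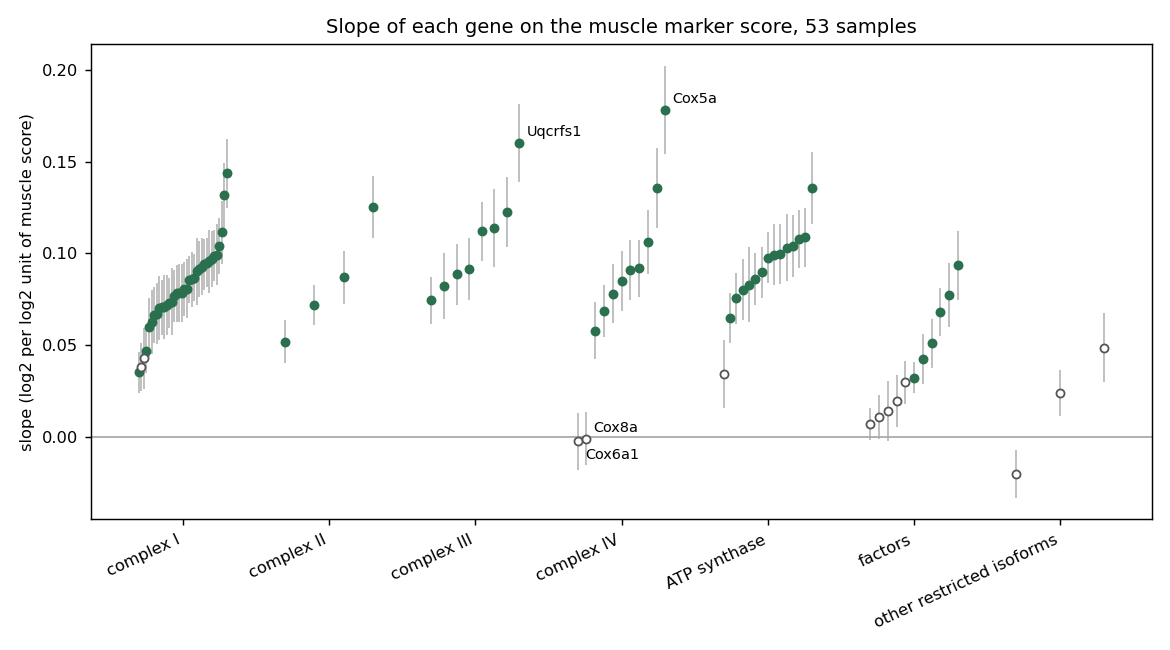
Slope of each tested gene on the muscle marker score (y axis, log2 units per log2 unit of the score) by complex or kind (x axis), from a fit of 53 samples with the 8 groups; bars are standard errors, filled points have a limma adjusted p under 0.05, and Cox6a2, Cox7a1 and Cox8b are left out for their scale. Nearly all subunits lie above 0, while Cox6a1 and Cox8a lie at 0.

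The mean of the 74 subunits differed little between groups. At 16 weeks, it averaged 11.65 ± 0.30 (SD, n = 5) on the standard diet, 11.53 ± 0.22 (SD, n = 7) on the high-fat diet and 11.39 ± 0.13 (SD, n = 5) with streptozotocin added. At 24 weeks, the same 3 treatments gave 11.76 ± 0.35 (SD, n = 8), 11.59 ± 0.19 (SD, n = 7) and 11.72 ± 0.30 (SD, n = 8). After DR, the mean was 11.66 ± 0.35 (SD, n = 7) without streptozotocin and 11.68 ± 0.49 (SD, n = 6) with it. The ranges of all groups overlapped. For single subunits, group means spanned 0.40 in the median, close to the SD within groups. Replicate 4 of HFD-STZ-DR mice had the highest level of all 53 samples for 52 of the 74 subunits, and replicate 7 of HFD-STZ mice at 24 weeks for 12 of 74 subunits and 8 of 11 factors. In limma's test of any difference among the 8 groups, 0 of 91 members had an adjusted p under 0.05, where 1.97% of 18069 genes did, and 2 had an unadjusted p under 0.05, where 14.6% of genes did. These were Cox8b (adjusted p = 0.271) and Cox6b2 (adjusted p = 0.274).

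**Figure D4:**
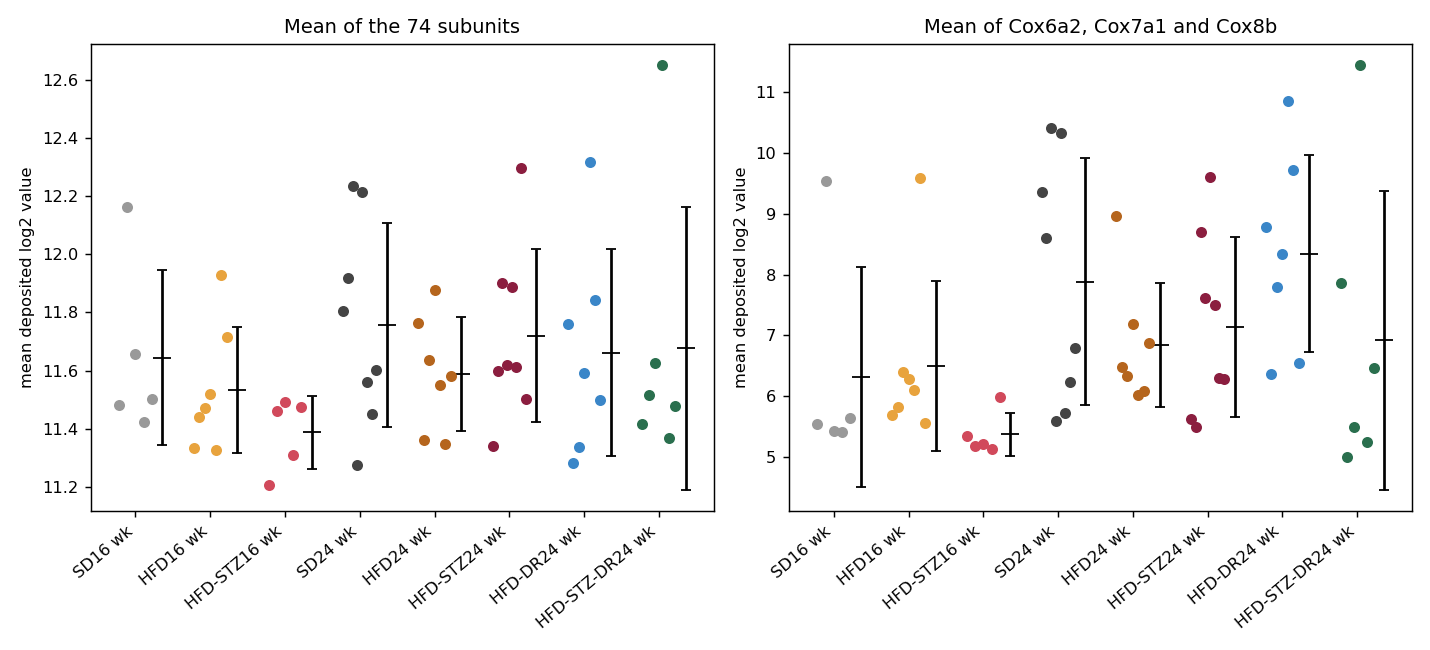
Mean log2 level of the 74 subunits (left) and of Cox6a2, Cox7a1 and Cox8b (right) in each of 53 samples, by group; lines with bars are group means and SDs, and the axes differ and do not start at 0. HFD-STZ mice at 16 weeks lie closest together, and replicate 4 of HFD-STZ-DR mice is highest in both panels at 12.65 and 11.44.

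In all, 10 comparisons of 2 groups were made, and in each of them 0 of 91 members had a Benjamini-Hochberg adjusted p under 0.05 in limma's test. The counts given for each comparison are of members with a higher or lower mean and of those with an unadjusted p under 0.05, beside the share of all genes tested with such a p. None of the genes in the lists set beside them, of cell markers and related pathways, passed the adjusted threshold in any comparison of 2 groups either. Limma's test among the 8 groups did call some list genes. These were 4 of 8 white adipocyte markers (smallest adjusted p 4.2e-05) and 1 of 10 Schwann cell markers (adjusted p = 0.0148). Comparisons that share a group are not independent of each other. Neither are the members, of which 69 of the 74 subunits rose with the same muscle marker score. A count of members is therefore not a count of separate results.

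At 16 weeks, HFD was compared with SD to ask what the diet changed. The mean was lower in HFD mice for 83 of 91 members and higher for 8, with a median difference of -0.11 against 0.01 over all genes. Adjusted calls were made for 0.00557% of genes as higher and 0% as lower. An unadjusted p under 0.05 was found for 0 members higher (4.98% of genes) and 1 lower (3.57% of genes). That was Ndufaf4, an assembly factor of complex I, at 9.82 ± 0.18 (SD, n = 7) on the high-fat and 10.09 ± 0.27 (SD, n = 5) on the standard diet (difference -0.27, SE 0.12, limma adjusted p = 0.572, 2-sided exact permutation p = 0.0556). Ndufaf6, another such factor, had a difference of -0.30 (SE 0.16, limma adjusted p = 0.609, 2-sided exact permutation p = 0.0328). All 36 subunits of complex I, 4 of complex II, 8 of complex III and 11 of complex IV were lower, as were 13 of 15 in ATP synthase, where Atp5g2 and Atp5g3 were higher. The 13 subunits encoded in mitochondrial DNA were all higher, with a median of 0.23. Without replicate 2 of SD mice, the median over the members was 0.01, without replicate 4 of SD mice it was -0.17 and without replicate 6 of HFD mice it was -0.18. White adipocyte markers were higher for 8 of 8 genes (median 2.26), and with their score as a covariate the median over the members was 0.12, while the muscle marker score ran from 5.58 to 9.70 in HFD and from 5.31 to 11.52 in SD mice. The part of either tissue was not tested.

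HFD-STZ mice at 16 weeks had the lowest mean of the 74 subunits of all 8 groups. The mean was lower than in SD mice for 90 of 91 members, Atp5sl being the exception, and the median difference was -0.27 against 0.02 over all genes. The adjusted threshold was passed by 0% of genes in either direction. Unadjusted, p was under 0.05 for 13 members lower (4.42% of genes) and 0 higher (3.99% of genes). Of the 13, 5 were in complex I, 1 in complex II, 2 in complex III, 0 in complex IV, 2 in ATP synthase, 2 among the factors and 1 among the muscle isoforms. Ndufaf4 stood at 9.95, 10.55, 10.07, 9.86 and 10.03 in SD mice and at 9.70, 9.61, 9.81, 9.72 and 9.61 in HFD-STZ mice, so that the groups did not overlap. The difference was -0.40 (SE 0.12, limma adjusted p = 0.545, 2-sided exact permutation p = 0.00794, the smallest that 5 against 5 samples allow). Replicate 7 of HFD mice at 16 weeks, whose library number stands where HFD-STZ libraries otherwise do, had a Ndufaf4 level of 9.92, within the range of SD mice. The other HFD libraries of that age ran from 9.57 to 10.10, some within the range of SD mice and some within that of HFD-STZ mice. The level thus does not settle the group of this library.

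The groups did not overlap for 2 more members with lower values in HFD-STZ mice, Sdhc and Atp5d, and 1.36% of genes had such a pattern. Sdhc, a membrane anchor of complex II, was 12.56 ± 0.06 against 12.80 ± 0.23 (SD, n = 5 each). Atp5d, the delta subunit in the central stalk of ATP synthase, was 12.45 ± 0.05 against 12.66 ± 0.17 (SD, n = 5 each, limma adjusted p = 0.586 for both genes). Cox8b was lower by a difference of -1.63 (SE 0.70, limma adjusted p = 0.586) and overlapped. The muscle marker score ran from 5.68 to 7.24 in HFD-STZ and from 5.31 to 11.52 in SD mice, with 13 of 14 tested markers lower (median -1.09), and 12 of 13 mitochondrially encoded subunits were lower (median -0.19). The count of 13 was 26, 40 and 23 without replicates 1, 4 and 5 of SD mice and 3, 5 and 1 without replicates 1, 2 and 4 of HFD-STZ mice, and the median was -0.14 without replicate 2 of SD mice. With the muscle score as a covariate the count was 16, with the white adipocyte score or the sensory neuron score 2, with the brown adipocyte score 56, with samples centred on their medians 23, and in a fit of all 8 groups 1.

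At 24 weeks, HFD mice had a lower mean than SD mice for 84 of 91 members (median -0.15, against 0.01 over all genes). By adjusted p, limma called 0.11% of genes as higher and 0.011% as lower. An unadjusted p under 0.05 was found for 0 members higher (5.54% of genes) and 2 lower (3.51% of genes). Sdhb ran from 12.24 to 12.78 (median 12.47) in HFD and from 12.34 to 13.68 (median 12.81) in SD mice, and the ranges overlapped. Its difference was -0.37 (SE 0.18, limma adjusted p = 0.550, 2-sided exact permutation p = 0.0656). Ndufaf7, an arginine methyltransferase that acts on complex I, was 10.15 ± 0.05 (SD, n = 7) against 10.28 ± 0.11 (SD, n = 8; limma adjusted p = 0.536, 2-sided exact permutation p = 0.0168). The muscle markers were lower for 14 of 14 tested (median -1.72), with a score from 5.75 to 12.63 in HFD and 5.51 to 13.70 in SD mice. The medians of the score were 6.88 in HFD and 9.32 in SD mice, and the part of muscle in the members' values was not tested. The count of 2 was 18 without replicate 4 of SD mice, 8 without its replicate 6 or 7, 7 without replicate 1 and 4 without replicate 4 of HFD mice, and 0 or 1 without any of 9 other libraries, and it was 29 with the white adipocyte score as a covariate.

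At 24 weeks, the direction was mixed when HFD-STZ was set against SD. Members were higher in 38 and lower in 53 cases, with a median of -0.03 against 0.00 over all genes. Adjusted calls were made for 0.0336% of genes as higher and 0% as lower, and 0 members had an unadjusted p under 0.05 in either direction (3.3% and 2.69% of genes). Sdha was 14.38 ± 0.09 in HFD-STZ and 14.55 ± 0.30 in SD mice (SD, n = 8 each), a difference of -0.17 (SE 0.11, limma adjusted p = 0.832). Mitochondrially encoded subunits were lower for 13 of 13 (median -0.35). Muscle markers were lower for 13 of 14 (median -1.58) and sensory neuron markers higher for 8 of 8 (median 0.75). The sensory neuron score was 13.58 in replicate 7 of HFD-STZ mice, and its group medians were 8.45 in HFD-STZ and 8.35 in SD mice. The median over the members was -0.12, with 13.2% of them higher, without replicate 7 of HFD-STZ mice, and 0.04, with 68.1% higher, without replicate 5 of SD mice.

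Against HFD mice of the same age, HFD-STZ mice had a higher mean for 89 of 91 members, with a median of 0.13 against -0.01 over all genes. The adjusted threshold was passed by 0% of genes in either direction. Unadjusted, p was under 0.05 for 1 member higher (1.42% of genes) and 0 lower (4.17% of genes). It was Ndufaf7, from 10.14 to 10.93 (median 10.29) in HFD-STZ and from 10.08 to 10.20 (median 10.16) in HFD mice, a difference of 0.21 (SE 0.10, limma adjusted p = 0.785, 2-sided exact permutation p = 0.00497). Its highest library was replicate 7, with the high sensory neuron markers, and without 1 library the difference ran from 0.13 to 0.24. The exceptions were Cox6b2, the testis isoform of subunit 6b (-0.24), and Atp5g2 (-0.11). Mitochondrially encoded subunits were lower for 13 of 13 (median -0.24), while the means of nearly all nuclear members were higher. The mean of the 74 subunits was 12.30 in replicate 7 of HFD-STZ mice. Its group medians were 11.62 in HFD-STZ and 11.58 in HFD mice. With any 1 library left out, the median over the members ran from 0.05 to 0.19. Sensory neuron markers were higher for 8 of 8 (median 0.67). Their score was 13.58 in replicate 7 of HFD-STZ mice, and its group medians were 8.45 in HFD-STZ and 8.35 in HFD mice.

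DR was compared with the continued high-fat diet in each model. Between HFD-DR and HFD mice, 65 members were higher and 26 lower after DR, with a median of 0.07 against -0.00 over all genes. By adjusted p, limma called 0% of genes as higher and 0.0108% as lower. An unadjusted p under 0.05 was found for 1 member higher (2.15% of genes) and 1 lower (4.57% of genes). Cox6a2 was the higher one, at 8.94 ± 2.41 against 6.41 ± 1.85 (SD, n = 7 each), a difference of 2.52 (SE 1.01, limma adjusted p = 0.673, 2-sided exact permutation p = 0.0525). Cox8a was the lower one, from 12.25 to 12.75 (median 12.57) in HFD-DR and from 12.44 to 13.24 (median 12.76) in HFD mice, a difference of -0.26 (SE 0.11, limma adjusted p = 0.721, 2-sided exact permutation p = 0.0437). Muscle markers were higher after DR for 14 of 14 tested, 10 of them with an unadjusted p under 0.05 (median 2.92), and the score ran from 7.12 to 13.99 against 5.75 to 12.63. With the muscle score as a covariate the median over the members was -0.13, and without replicate 5 of HFD-DR mice it was -0.03. The 2 members with an unadjusted p under 0.05 became 0 to 4 with any 1 library left out and 20 with the white adipocyte score as a covariate.

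In the T2D model, 30 members were higher and 61 lower after DR (median -0.035, against 0.01 over all genes). Adjusted calls were made for 0% of genes as higher and 0.084% as lower. Unadjusted, p was under 0.05 for 0 members higher (1.97% of genes) and 2 lower (4.51% of genes). Ndufa4l2, a hypoxia-induced relative of the complex IV subunit Ndufa4, had the smallest p of any member in this comparison. It ran from 8.84 to 9.22 in HFD-STZ-DR and from 9.12 to 9.70 without DR, and the ranges overlapped. The difference was -0.34 (SE 0.09, limma adjusted p = 0.251, 2-sided exact permutation p = 0.002), and it stayed between -0.38 and -0.29 with any 1 library left out. Cox8a again was lower, by a difference of -0.27 (SE 0.11, limma adjusted p = 0.650, 2-sided exact permutation p = 0.0306). Ndufa4 itself was 11.90 ± 0.77 (SD, n = 6) against 12.10 ± 0.50 (SD, n = 8). When samples were centred on their medians, 56% of members were higher after DR. Without replicate 4 of HFD-STZ-DR mice, the median was -0.225 and 16 members had an unadjusted p under 0.05. Mitochondrially encoded subunits were higher after DR for 13 of 13 (median 0.23). Their mean was 13.29 in replicate 4 of HFD-STZ-DR mice, while the group medians of this mean were 11.20 after DR and 11.36 without it. White adipocyte markers were lower after DR for 8 of 8, all with an unadjusted p under 0.05 (median -2.07), endothelial markers for 5 of 5, 2 of them with such a p (median -0.19), and sensory neuron markers for 8 of 8 (median -0.61). The sensory neuron score was 13.58 in replicate 7 of HFD-STZ mice. Its group medians were 8.54 after DR and 8.45 without it, so the lower values after DR rested on that library. Muscle markers were higher for 12 of 14 (median 0.74). The muscle score was 14.53 in replicate 4 of HFD-STZ-DR mice, while its group medians were 7.92 after DR and 8.16 without it. The part of these tissues in the members' values was not tested.

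Age was compared within each diet. From 16 to 24 weeks, the mean in SD mice was higher for 75 of 91 members (median 0.09, against 0.01 over all genes). The adjusted threshold was passed by 0% of genes in either direction, and 0 members had an unadjusted p under 0.05 as higher (5.43% of genes) or lower (5.04% of genes). Cox6b2 was 7.43 ± 0.18 (SD, n = 8) at 24 and 7.18 ± 0.13 (SD, n = 5) at 16 weeks (limma adjusted p = 0.480, 2-sided exact permutation p = 0.0109). Atp5a1, the alpha subunit of ATP synthase, was 14.76 ± 0.48 (SD, n = 8) at 24 and 14.37 ± 0.26 (SD, n = 5) at 16 weeks (limma adjusted p = 0.522). Muscle markers were higher for 14 of 14 tested (median 2.33), and with their score as a covariate the median over the members was -0.14 and 12.1% of them were higher. Centring samples on their medians gave 52.7% of members higher instead of 82.4%.

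In HFD mice, the mean at 24 weeks was higher for 80 of 91 members (median 0.05, against 0.02 over all genes). By adjusted p, limma called 0% of genes as higher and 0.0654% as lower. An unadjusted p under 0.05 was found for 1 member higher (2.68% of genes) and 0 lower (3.22% of genes). This was Cox6b2, at 7.51 ± 0.18 against 7.19 ± 0.28 (SD, n = 7 each; limma adjusted p = 0.815, 2-sided exact permutation p = 0.0291). Centring gave 52.7% higher instead of 87.9%. Muscle markers were higher at 24 weeks for 14 of 14 (median 0.48) and macrophage markers for 6 of 6 (median 0.48), while Schwann cell markers were lower for 10 of 10, 3 of them with an unadjusted p under 0.05 (median -0.19).

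The largest median difference of the 10 comparisons was in HFD-STZ mice between 16 and 24 weeks. The mean at 24 weeks was higher for 90 of 91 members, with a median of 0.33 against 0.00 over all genes. Adjusted calls were made for 0% of genes in either direction. Unadjusted, p was under 0.05 for 54 members higher (5.85% of genes) and 0 lower (6.69% of genes), and the smallest adjusted p of any member was 0.279. By complex, the 54 were 22 of 36 in complex I (median 0.35), 3 of 4 in complex II (0.25), 6 of 8 in complex III (0.39), 10 of 11 in complex IV (0.38) and 8 of 15 in ATP synthase (0.29), with 1 of 11 factors (0.22). Another 2 of 3 muscle isoforms and 2 of 3 tested restricted isoforms made up the rest.

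Atp5g3, which encodes the same ring subunit as Atp5g2, stood at 12.56, 12.75, 12.79, 12.69 and 12.84 at 16 weeks and ran from 12.91 to 13.55 (median 13.01) at 24 weeks. The ages did not overlap, and the difference was 0.41 (SE 0.11, limma adjusted p = 0.289, 2-sided exact permutation p = 0.00155, the smallest these group sizes allow). In replicate 7 of HFD mice at 16 weeks, Atp5g3 was 13.18, within the range of HFD-STZ mice at 24 weeks. The other HFD libraries at 16 weeks ran from 12.78 to 13.06 and overlapped HFD-STZ mice of both ages. This level thus does not settle the group of replicate 7 either. Ndufab1, like the steep subunits above, was named after values were seen. Ndufv1, which holds the NADH site of complex I, Ndufab1, its acyl carrier protein, and Ndufa4 did not overlap either, at differences of 0.38, 0.35 and 0.57, and 0.512% of genes had such a pattern. Cox8b was 7.10 ± 1.37 (SD, n = 8) at 24 and 4.72 ± 0.48 (SD, n = 5) at 16 weeks, a difference of 2.38 (SE 0.58, limma adjusted p = 0.279, 2-sided exact permutation p = 0.00311). Cox6a1 and Cox8a were higher by 0.34 (SE 0.14) and 0.33 (SE 0.12). Both were highest among HFD-STZ mice in replicate 7 at 24 weeks (13.73 and 13.19), the library with high sensory neuron markers. Sdha was higher by 0.08 (SE 0.06), less than Sdhb (0.38, SE 0.14).

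**Figure D5:**
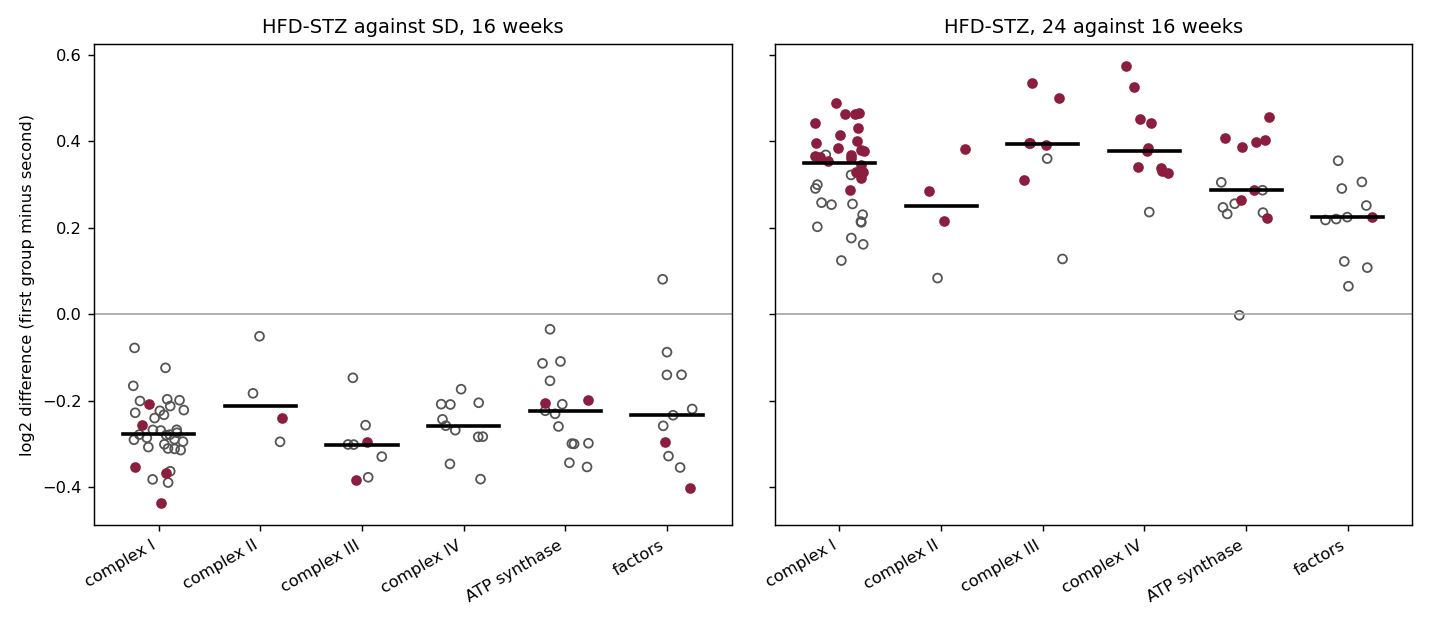
Log2 difference of each tested subunit and factor (y axis) by complex or kind (x axis), for HFD-STZ against SD mice at 16 weeks (left) and HFD-STZ mice at 24 against 16 weeks (right); black lines are medians and filled points have an unadjusted limma p under 0.05, while no adjusted p passed. Nearly all points lie below 0 on the left and above 0 on the right, and both panels use the same HFD-STZ samples at 16 weeks.

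Other measures moved with this age comparison. Muscle markers were higher at 24 weeks for 14 of 14 tested (median 1.77, score from 5.28 to 10.82 against 5.68 to 7.24), white adipocyte markers for 8 of 8 (median 1.47) and sensory neuron markers for 8 of 8 (median 0.67). The sensory neuron score was 13.58 in replicate 7 at 24 weeks, and its group medians were 8.45 at 24 and 8.31 at 16 weeks. Schwann cell markers were lower for 10 of 10 (median -0.18) and fibroblast markers for 4 of 4 (median -0.40). With the muscle score as a covariate, the count of 54 was 16, and with muscle, brown adipocyte and sensory neuron scores together it was 2. It was 20 and 25 without replicates 1 and 4 of HFD-STZ mice at 16 weeks, 35 without replicate 3 of those at 24 weeks, 32 in a fit of all 8 groups and 35 with samples centred on their medians. The same HFD-STZ samples at 16 weeks enter the comparison with SD mice. The change with age in HFD-STZ mice minus that in SD mice, a test added after the data had been seen, had a median of 0.22 over the members. In it, 0 of 91 had an adjusted p under 0.05 (smallest 0.757 in limma's test), and 0 had an unadjusted p under 0.05, where 2.09% of genes did as higher and 2.59% as lower, and these p-values do not show that the changes were alike.

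Related genes in HFD-STZ mice at 24 against 16 weeks gave mixed values. Cytochrome c (Cycs) was higher by 0.44 and the cytochrome c1 gene Cyc1 by 0.38, and citrate cycle genes were higher for 13 of 13 (median 0.23), 7 of them with an unadjusted p under 0.05. The 13 mitochondrially encoded subunits were higher in 8 and lower in 5 cases (median 0.12). Among the regulators, Ppargc1b was higher by 0.27 and Esrra by 0.24, while Tfam differed by 0.01, Nrf1 by -0.06, Gabpa by -0.17 and Ppargc1a by -0.20. Limma's adjusted p for these 8 genes ran from 0.355 to 0.960. Esrrg, named after its values were seen, was the only regulator with an unadjusted p under 0.05 and had the largest difference of the 14, at 6.76 against 4.78 (1.98, SE 0.59, limma adjusted p = 0.289). Over the 14 regulators, 7 were higher and 7 lower (median -0.01), and over 30 further assembly factors 29 were higher (median 0.17).

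For the 5 other restricted isoforms, group means spanned 0.36 in the median, close to the 0.40 of the 74 subunits. Cox4i2, the hypoxia-responsive form of subunit 4, lay near 6 in every group, from 5.99 ± 0.17 (SD, n = 5) in HFD-STZ mice at 16 weeks to 6.34 ± 0.31 (SD, n = 8) in those at 24 weeks, and Cox4i1 between 13.45 and 13.83 in the group means. Cox7a2l, classed here as a supercomplex factor, had group means from 11.29 to 11.51. Cox7b2 and Cox8c, known from testis, were at 1.75 and 0.50 on average and were not tested. Of the 2 ring subunit genes named, Atp5g2 had group means from 4.75 to 5.00 and Atp5g3 from 12.73 to 13.20.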

How the data were processed

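RNA-seq of sciatic nerve from 53 samples in 8 groups was used. The sources differ on the kit (Trizol and TruSeq mRNA in the labels, RNeasy and SMART-Seq v4 in the paper). Reads were aligned by the authors with HISAT2 to mm10 and counted with featureCounts. The authors deposited log2 values, which they normalized in a way not given in the sources used here. They are neither counts nor FPKM, so depth and counting error are unknown and the number of samples limits the precision. Of 49568 genes, 2180 were at 0 in every sample, and 25 genes with a value above 22 (23 in replicate 7 of HFD-STZ mice at 24 weeks and 2 in replicate 1 of HFD mice at 24 weeks, none a member) were left out. No 2 samples held identical values, and correlations between libraries ran from 0.916 to 0.994.

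Each comparison of 2 groups was fitted on those groups with limma 3.58.1 (R 4.3.3, trended empirical Bayes) for genes whose log2 values averaged 3.32 or more, and p-values were adjusted by Benjamini-Hochberg across every gene fitted, with a threshold of 0.05. The test among 8 groups and the slopes used all samples. Permutation tests used SciPy 1.17.1. Exon lengths and positions came from GENCODE M21 (GRCm38), promoters from RefSeq (GRCm38.p6). The fit was tested on simulated data. Alternatives changed the filter, the samples fitted, the centring, the empirical Bayes step and covariates for marker scores or for 8 runs of library numbers.

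The members and lists were chosen with earlier results of these data known. Named genes were any past the threshold, the 2 with the smallest p in each direction of each comparison, the muscle isoforms and counterparts, complex II, Cox4i1, Cox4i2, Ndufa4, Ndufa4l2, Cox7a2l, and the highest and lowest of each complex per kb. The sensory neuron list, the slopes, the difference in age change, the brown adipocyte and neuron covariates and the omission of 3 libraries were added after seeing the data. Values of some single genes are not reported here.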

Additional observations from a re-analysis of the deposited data

Results flagged for a closer look

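For 13 measures (means of each complex, of all subunits and of the factors, and single isoforms), 1 sample of a group stood apart from the others in 19 of 104 groups, by Dixon's criterion at its 95% critical value. Chance gives about 1 in 20 groups, and the measures are not independent of each other.

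Replicate 4 of HFD-STZ-DR mice stood above the other 5 samples of its group in most measures. The mean of the subunits was 12.65 (others 11.37 to 11.63), of complex I 12.22 (11.01 to 11.30), of complex II 14.04 (12.85 to 12.98), of complex III 12.98 (11.46 to 11.72), of complex IV 12.98 (11.70 to 12.04), of ATP synthase 12.90 (11.53 to 11.71) and of the factors 10.08 (9.43 to 9.63). Cox7a1 was 10.45 (6.41 to 7.29) and Cox7a2 12.48 (11.40 to 11.78). Its muscle marker score was 14.53, the highest of all samples, and the part of muscle in these values was not tested.

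Replicate 6 of HFD mice at 16 weeks stood apart for complex II at 13.26 (12.77 to 12.95), complex III at 12.28 (11.45 to 11.79), Cox7a1 at 9.82 (6.40 to 6.95) and Cox8b at 10.57 (5.42 to 6.06). Replicate 2 of SD mice at 16 weeks did for complex III at 12.39 (11.56 to 11.78), ATP synthase at 12.22 (11.57 to 11.75), Cox6a2 at 10.43 (3.64 to 5.05) and Cox7a1 at 8.95 (6.45 to 6.99). Replicate 5 of HFD-DR mice did for complex II at 13.97 (12.76 to 13.27). Replicate 7 of HFD-STZ mice at 24 weeks did for the factors at 10.37 (9.34 to 9.69).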

How the results depend on the processing

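With every alternative and with each library left out (189 fits), 0 members had an adjusted p under 0.05 in any comparison. The median difference of the members had the other sign in 11 of 118 alternative values, each within the spread between samples. With 1 library left out, it ran from -0.18 to 0.01 for HFD against SD and -0.32 to -0.14 for HFD-STZ against SD at 16 weeks, from -0.22 to -0.08, -0.12 to 0.04 and 0.05 to 0.19 for HFD against SD, HFD-STZ against SD and HFD-STZ against HFD at 24 weeks, from -0.03 to 0.13 and -0.225 to 0.05 for DR in HFD and HFD-STZ mice, and from 0.02 to 0.22, 0.0059 to 0.11 and 0.24 to 0.38 for age in SD, HFD and HFD-STZ mice. Without 3 libraries with brown adipocyte or sensory neuron transcripts, 53 instead of 54 members had an unadjusted p under 0.05 for age in HFD-STZ mice. These 3 were chosen over all groups, and Ucp1 was above 8 in 7 libraries. The omission thus does not show what the count is without every library with brown adipocyte transcripts.

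Of 449 alternative values for 38 named differences, 441 kept their direction. Atp5g2 for age in HFD-STZ mice was 0.11 with the run of library numbers, 0.0065 with the muscle score, 0.0625 with the sensory neuron score, 0.0099 with 3 scores and 0.0541 without 3 libraries, against -0.0022. Atp5a1 for age in SD mice was -0.11 with 3 scores, Ndufa4l2 for HFD against SD at 16 weeks -0.0017 with the adipocyte score, and Ndufv2 for age in HFD mice 0.0055 without 3 libraries. With 1 library left out, Atp5g2 ran from -0.1034 to 0.073, Ndufv2 from -0.1035 to 0.006, Ndufa4l2 from -0.0219 to 0.0897 and Sdha for DR in HFD-STZ mice from -0.038 to 0.14. The cause was not tested. The labels give library numbers and no replicate numbers shared across groups, so samples were not paired by replicate. In their place, a fit of all groups with the 8 runs of library numbers as a block gave 41 members with an unadjusted p under 0.05 instead of 54 for age in HFD-STZ mice, 1 instead of 13 for HFD-STZ against SD at 16 weeks and 10 instead of 2 for HFD against SD at 24 weeks, where the same fit without the block gave 32, 1 and 0.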
